A study of Mus musculus with 2 samples.

Results

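Kupffer cells are the resident macrophages of the liver, which sit in the sinusoids and clear particles, microbes and dying cells from portal blood. Of the genes that mark them, 9 were followed in the ATAC-seq data of *Mettl3*-HKO livers: the complement genes *C1qa*, *C1qb* and *C1qc*, the surface receptors *Clec4f*, *Csf1r*, *Vsig4* and *Timd4*, the secreted protein gene *Cd5l*, and *Spi1*, which encodes the transcription factor PU.1. A region of open chromatin was taken for a gene when that gene had the closest transcription start site (TSS) in the table of the authors, at any distance. By this rule 7 of the 69549 distinct regions belonged to 6 of the 9 genes. *Vsig4*, *Timd4* and *Cd5l* had no region, and 3 of the 7 regions were promoter regions, with their centre within 1 kb of the TSS.

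ATAC-seq uses the Tn5 transposase, which inserts adaptors into accessible DNA, so that reads pile up where chromatin is open. The *Mettl3* flox/flox library (the flox library) and the *Mettl3*-HKO library (the HKO library, *Mettl3* flox/flox Alb-Cre+/-) were each made from liver nuclei pooled from 4 C57BL/6 mice, aged 8 weeks and kept on normal chow. Both groups carry the floxed *Mettl3* alleles, and Alb-Cre, driven by the albumin promoter, deletes *Mettl3* in hepatocytes and not in Kupffer cells. With 1 pooled library per group there was no replicate error, and every comparison below is between 2 libraries.

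The totals used for scaling were 52826209 counts for the flox library and 58038309 for the HKO library, of which 31.7% and 22.3% lay on the regions. Log2 ratios are those of the HKO library over the flox library, on the scale of those totals, with 1 read added to each count. On this scale the median of all regions was −0.38 and that of the 14387 promoter regions −0.56, so ratios centred on the former are 0.38 higher. Intervals are 95% Clopper-Pearson intervals and p-values are two-sided exact conditional binomial tests adjusted by Benjamini-Hochberg over the 69549 regions, and both cover counting error only. The liver label was met by the hepatocyte markers: all 8 had a promoter region. The log2 ratios of these promoters ran from −1.32 to 0.02 with a median of −0.76, and the highest was that of *Alb*, with 480 (flox) and 533 (HKO) counts.

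PU.1 is the pioneer factor of the macrophage lineage and binds a purine-rich motif around GAGGAA. CSF1R is the receptor for the growth factors that keep macrophages alive, and CLEC4F, VSIG4 and TIMD4 are receptors for glycans, complement fragments and phosphatidylserine. The A, B and C chains of C1q assemble into the recognition unit of the classical complement pathway. Their genes lie side by side, and in the liver C1q comes mainly from macrophages.

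The promoters of *C1qb* and *C1qc* are shown because both lie within, or almost wholly within, a region that was higher in the HKO library. That of *C1qa* was not among the promoter sequences at hand. The sequences are from RefSeq on GRCm38.p6, minus strand, from 250 bases before to 50 after the gene start, with GAGGAA or its reverse complement TTCCTC in capitals.
C1qb: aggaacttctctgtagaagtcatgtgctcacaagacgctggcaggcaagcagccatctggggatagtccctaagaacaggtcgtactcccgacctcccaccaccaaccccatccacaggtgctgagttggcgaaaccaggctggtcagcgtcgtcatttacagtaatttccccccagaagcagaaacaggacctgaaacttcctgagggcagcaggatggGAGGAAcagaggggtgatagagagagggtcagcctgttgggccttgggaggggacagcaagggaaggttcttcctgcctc
C1qc: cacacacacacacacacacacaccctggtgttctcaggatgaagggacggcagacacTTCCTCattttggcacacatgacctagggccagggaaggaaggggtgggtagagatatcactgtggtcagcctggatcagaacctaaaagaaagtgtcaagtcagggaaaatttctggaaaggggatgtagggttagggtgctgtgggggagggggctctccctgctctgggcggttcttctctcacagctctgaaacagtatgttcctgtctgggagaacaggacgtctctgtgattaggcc
The *C1qb* sequence is chr4:136886151-136886450 and the *C1qc* sequence chr4:136892865-136893164, of which 300 and 293 bases fall in the open regions. The motif begins 30 bases before the *C1qb* start and 193 bases before the *C1qc* start of these RefSeq sequences. The TSSs of the authors' table, used for the distances of the regions, differ from those starts by 13 and 151 bases, and the motif begins 43 and 42 bases before them.

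On both strands, GAGGAA was found in 4 of the 6 promoters of these genes that were in the RefSeq set (*Cd5l*, *C1qb*, *C1qc* and *Vsig4*) and in 28.3% of all 32851 promoters. The longer form GAGGAAG, which contains GAGGAA, was in *Cd5l* and *C1qc* and in 13.6% of all promoters. The MAF recognition motif TGCTGAC was in *Timd4* alone among the 6 and in 4.67% of all promoters. These are matches of letters, and binding was not measured. *Vsig4*, *Timd4* and *Cd5l* thus hold these letters in promoters at which no region was listed.

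The 3 C1q promoters were higher in the HKO library. Together they held 57 flox and 171 HKO counts. This sum describes the listed regions only, since *C1qa* and *C1qc* entered the table through a peak in the HKO library alone, and *C1qb* is the one with a peak in both. In whole liver, a difference in the number of nuclei of a cell type and one in open chromatin per nucleus cannot be told apart. This holds for each of the ratios that follow.

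*C1qa* encodes the A chain. Its region (chr4:136898713-136899027, centred 66 bp upstream of the TSS and ending in intron 1) had 8 flox and 40 HKO counts. The log2 ratio was 2.05 (interval 1.07 to 3.49, adjusted binomial p = 3.94e-05), the highest of the 7 regions. *C1qc*, for the C chain, had 19 and 60 counts in its region (chr4:136892856-136893157, centred 59 bp downstream of the TSS in the 5′ UTR), a log2 ratio of 1.47 (0.76 to 2.35, adjusted binomial p = 7.20e-05). *C1qb*, for the B chain, had 30 and 71 counts (chr4:136886061-136886516, centred 101 bp upstream of the TSS and reaching the 5′ UTR), a log2 ratio of 1.08 (0.47 to 1.77, adjusted binomial p = 0.000791). All 3 intervals lay above 0 and above the median of all promoter regions. They also lay above the median of promoter regions with 40 to 120 counts (0.0018). *C1qa* and *C1qc* were listed through the HKO library alone, so their intervals and p-values in part restate that choice.

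Per base, *C1qa* reads were 1.48-fold over the genome mean (flox) and 6.12-fold (HKO). For *C1qc* the enrichment was 3.42-fold and 9.50-fold, and for *C1qb* 3.51-fold and 7.43-fold. These are low levels for promoters, whose median enrichment was 25.8-fold and 16.7-fold. In the flox library only 0.285% of promoter regions had a lower enrichment than *C1qa*, 2.88% a lower one than *C1qc* and 3.02% a lower one than *C1qb*. In the HKO library these shares were 10%, 24.8% and 16.1%.

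**Figure D1:**
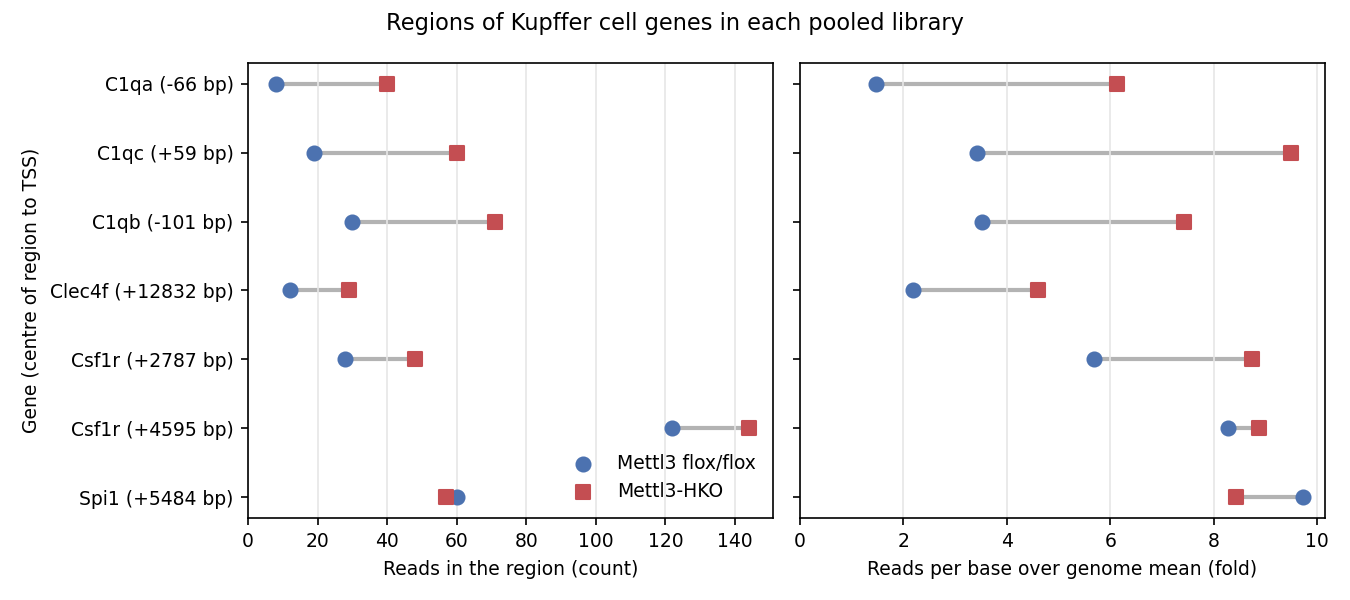
Reads in each of the 7 regions as counts (left) and as fold enrichment per base over the genome mean (right), with blue circles for the Mettl3 flox/flox library and red squares for the Mettl3-HKO library. The 3 C1q promoters, Clec4f and the nearer Csf1r region sit to the right in the Mettl3-HKO library, the farther Csf1r region is nearly level, and Spi1 is slightly to the left.

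The table lists a region only when a peak was called in at least 1 library, and this bears on the ratio and p-value of every region with a peak in 1 library alone. Of all regions with a peak in the flox library only, 52.0% were at least 2-fold lower. Peaks at *C1qa* and *C1qc* were called in the HKO library only, as in 8.40% of promoter regions, so these regions were listed through the library in which they were higher. Of all promoter regions of that kind, 41.1% were at least 2-fold higher in the HKO library. At *C1qb* a peak was called in both libraries, and of such promoter regions 0.742% were at least 2-fold higher. Over all 14387 promoter regions 4.07% passed this fold upward, and 16.3% passed it downward. Depth also matters, since among promoter regions with 40 to 120 counts, where the 3 C1q regions fall, 17.1% were at least 2-fold higher and the median log2 ratio was 0.0018.

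The C1q regions span 12967 bp. Within 100 kb on either side only 1 other region was listed, 82.6 kb beyond *C1qa* and closest to *Epha8*, which encodes an ephrin receptor. Its 10 flox counts stood against 57 HKO counts (log2 ratio 2.26, interval 1.39 to 3.51). On the other side the nearest region lay 143.9 kb from *C1qb* and had 7 and 45 counts (log2 ratio 2.39, interval 1.39 to 3.94). Both flanking regions had a peak in the HKO library only, so they too were listed through the library in which they were higher.

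**Figure D2:**
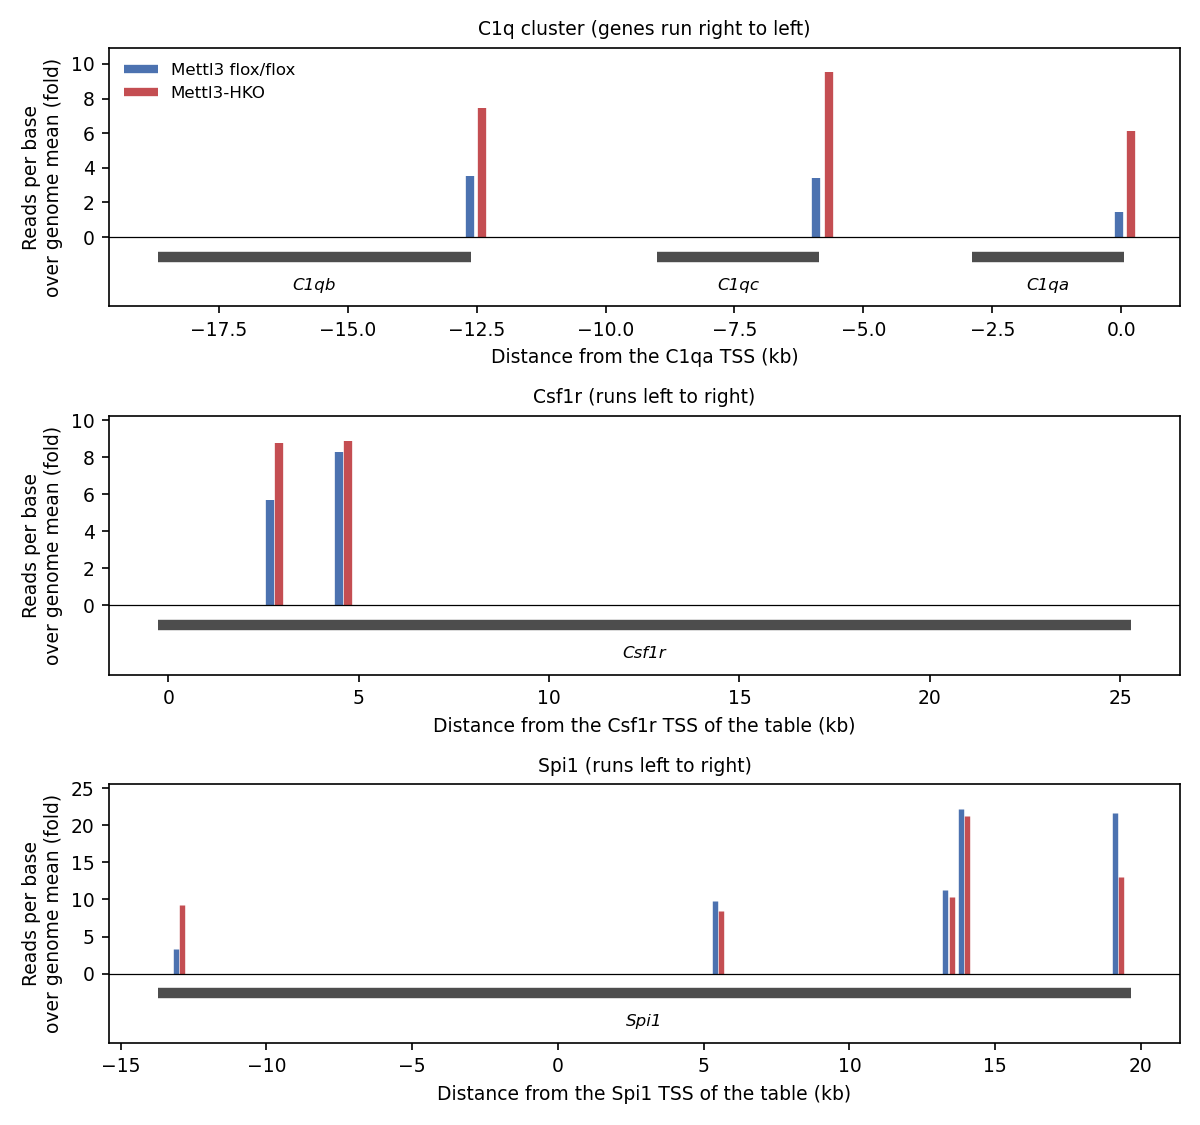
Fold enrichment per base over the genome mean at the regions of the C1q cluster, Csf1r and Spi1, by distance in kb from the TSS named on each axis, with bars of the 2 libraries drawn side by side and grey bars for the RefSeq genes. Red bars (Mettl3-HKO) are higher than blue bars (Mettl3 flox/flox) at each C1q promoter, and at Spi1 they are higher only at the region 13001 bp upstream of the authors' TSS. That region lies within 1 kb of the start of the RefSeq gene.

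Among the receptors, *Clec4f*, whose lectin product is found on Kupffer cells alone in mice, had 1 region (chr6:83643202-83643508). It is intergenic, 12832 bp downstream of the TSS and 1034 bp beyond the end of the RefSeq gene. It had 12 flox and 29 HKO counts, with a peak called in the HKO library alone, and the log2 ratio was 1.07 (interval 0.12 to 2.24, adjusted binomial p = 0.0394). As this region was listed through the HKO library, the p-value in part restates that choice. No region was listed at the *Clec4f* promoter.

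*Csf1r* had 2 regions in the gene body and none at the promoter. The first (chr18:61108508-61108771, intron 1, 2787 bp from the TSS) had 28 and 48 counts and a peak in the HKO library only. Its log2 ratio was 0.62, with an interval of −0.06 to 1.37 that includes 0 (adjusted binomial p = 0.103). The second (chr18:61110064-61110831, 4595 bp from the TSS, from intron 2 over exon 3 into intron 3) was the most deeply covered of the 7 regions, with 122 and 144 counts and a peak in both libraries. Its log2 ratio was 0.10 (interval −0.25 to 0.46, adjusted binomial p = 0.659). Centred on the median region, the log2 ratios were 0.998 and 0.48, and both were under the threshold of the binomial test (adjusted p = 0.00736 and 0.0153). The first of these p-values belongs to a region listed through the HKO library alone, and the second to one with a peak in both.

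*Vsig4*, *Timd4* and *Cd5l*, the last for a scavenger protein that macrophages secrete, were looked for by symbol, by Ensembl identifier and by position. The nearest listed regions were 116.7 kb from *Vsig4*, 76.9 kb from *Timd4* and 137.2 kb from *Cd5l*, each with another gene closest. The table holds no counts outside regions, so no level and no upper limit can be given for these 3 genes in either library.

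*Spi1* had 1 region (chr2:91101419-91101742, intron 2, 5484 bp from the TSS), with a peak in both libraries. It held 60 flox and 57 HKO counts, a log2 ratio of −0.21 whose interval of −0.76 to 0.34 spans 0 (adjusted binomial p = 0.548). Centred on the median region, the log2 ratio was 0.17. This 1 region thus lay below the C1q promoters.

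The RefSeq *Spi1* gene holds 4 more regions, which the table assigns to the closest TSS of a neighbour and which were looked up after their values were seen. In the intron with the *Spi1* region, a region 13400 bp from the TSS had 65 counts in each library (log2 ratio −0.14), and one at 13928 bp had 200 and 210 (−0.07). A region over the last exon had 244 and 160 counts and a log2 ratio of −0.74 (interval −1.04 to −0.45, adjusted binomial p = 1.22e-06). The remaining one (chr2:91082926-91083264) had 21 and 66 counts, a log2 ratio of 1.47. It lies 13001 bp upstream of the authors' TSS, but within 1 kb of the start of the RefSeq gene (chr2:91082374). It had a peak in the HKO library only and was listed through it, while the others had a peak in both.

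Over the 7 regions the median log2 ratio was 1.07, and 1.45 after centring, with 6 values above 0. Without the C1q promoters the median of the other 4 was 0.36. At least 2-fold higher in the HKO library were 4 of the 7 (the C1q promoters and *Clec4f*), against 13.2% of all regions, and none was at least 2-fold lower, against 18.3%. Of regions with 40 to 120 counts, which include 6 of the 7, 23.0% were at least 2-fold higher. The binomial test called 4 regions higher and 0 lower, against 19.9% and 47.3% of all regions. Of the 4, *C1qa*, *C1qc* and *Clec4f* had a peak in the HKO library only, and of all such regions the test called 63.8% higher. Only *C1qb* had a peak in both libraries, and of such promoter regions it called 3.62% higher. With its null ratio centred on the median region it called 6 higher and 0 lower, against 31.0% and 28.8%. That test called 82.4% of the regions with a peak in the HKO library only and 21.5% of those with a peak in both. A peak in the HKO library only was found in 4 of the 7 and in 21.5% of all regions. Of all regions with such a peak 53.3% were at least 2-fold higher, and of those with a peak in both libraries 2.91%.

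**Figure D3:**
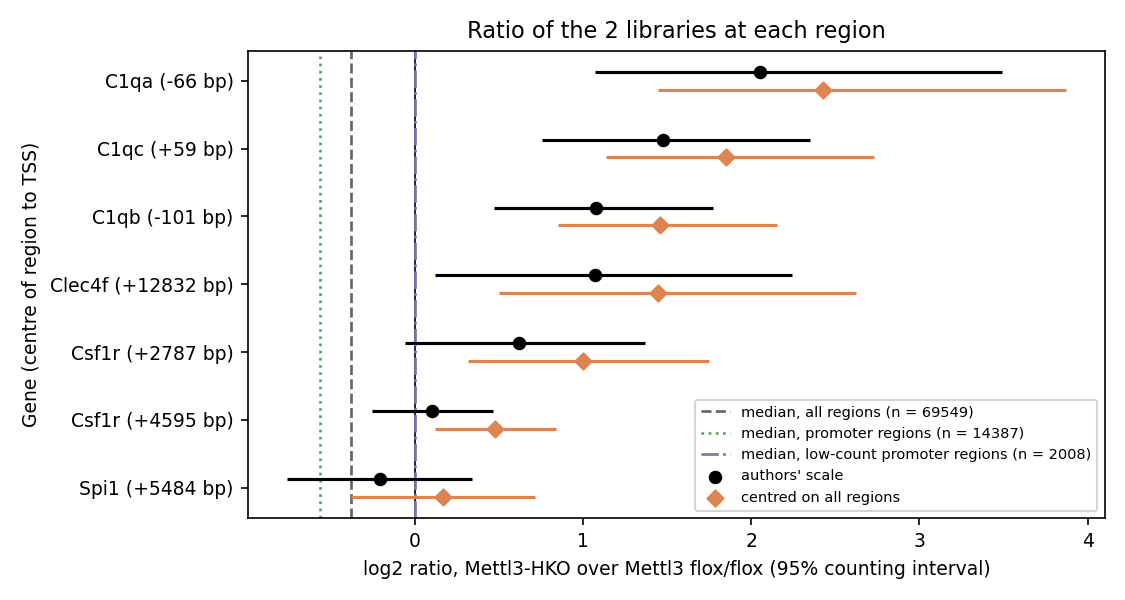
Log2 ratio (Mettl3-HKO to Mettl3 flox/flox) for each of the 7 regions with its 95% counting interval, on the scale of the library totals (black) and centred on the median of all regions (orange), with vertical lines for the medians of all, promoter and low-count promoter regions. On the first scale the intervals of the C1q promoters and Clec4f lie above 0, and those of both Csf1r regions and Spi1 include it. Of those above 0, all but C1qb were listed through a peak in the Mettl3-HKO library alone.

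The difference between the ratios of any 2 regions does not depend on the scaling. All 21 pairs were compared by two-sided Fisher's exact tests of their counts, adjusted over the pairs, and 6 pairs passed the threshold of 0.05. These tests too compare 2 libraries and cover counting error only, and whether the counts include duplicate reads is not stated. Each of the 6 pairs set a C1q promoter against *Spi1* or the farther *Csf1r* region, both of which had a peak in both libraries. Of the C1q promoters only *C1qb* did too. Those of *C1qa* and *C1qc* were listed through the library in which they were higher, so their p-values in part restate that choice and are given as a description. For *C1qb* the exact test gave adjusted p = 0.00629 against the *Spi1* region and 0.0217 against the *Csf1r* region at 4595 bp. For *C1qa* the exact test gave adjusted p = 0.000981 and 0.00116, and for *C1qc* 0.00130 and 0.00337. Among the C1q promoters no pair passed. The log2 ratio of *C1qa* exceeded that of *C1qb* by 0.97 (exact test, adjusted p = 0.202), which does not show that they were alike at counts of this size. *Clec4f*, also listed through the HKO library alone, did not pass against *Spi1* (difference 1.28, exact test, adjusted p = 0.0537). In order of log2 ratio the regions ran *C1qa*, *C1qc*, *C1qb*, *Clec4f*, *Csf1r* at 2787 bp, *Csf1r* at 4595 bp and *Spi1*, and no neighbours in this order passed the test.

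**Figure D4:**
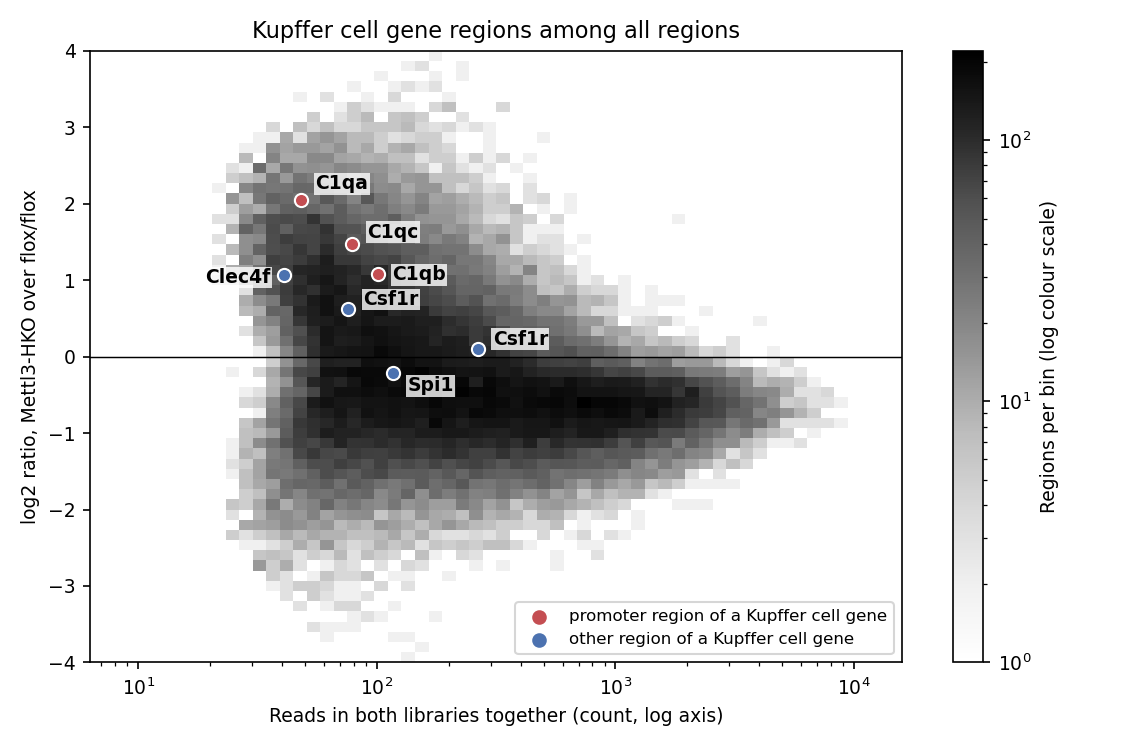
Log2 ratio (Mettl3-HKO to Mettl3 flox/flox) against the reads of both libraries together (log axis) for the regions in bins of grey, with promoter regions of the Kupffer cell genes in red and their other regions in blue. All of the 7 regions but the farther Csf1r region lie among those of low count, where ratios spread widely, and all but Spi1 are above 0.

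Other genes of Kupffer cells and macrophages did not share 1 direction. In whole liver the reads at these genes, and at those of the lists below, cannot be assigned to a cell type. Of 20 such genes 13 had a region, 30 regions in all, of which 8 were higher by 2-fold or more and 3 lower, with a median log2 ratio of −0.01. Of all regions 13.2% passed this fold upward and 18.3% downward, and of those with 40 to 120 counts 23.0% passed it upward. All 8 had a peak in the HKO library only, and 2 of the 3 lower ones had a peak in the flox library only. The highest had *Mrc1*, the mannose receptor gene, as the closest TSS (25 and 147 counts, 2.37), and *Folr2*, for a folate receptor of tissue macrophages (5 and 32 counts, 2.32). They lie in introns of other genes, *Tmem236* and *Folr1*. Of 6 promoter regions, that of *Lgals3*, for galectin-3 (15 and 42 counts, 1.29), and 1 of the 2 of *Cd14*, the lipopolysaccharide co-receptor (31 and 73 counts, 1.07), were at least 2-fold higher. The other *Cd14* promoter region had 45 and 72 counts (0.53). The promoter of *Mertk*, a receptor for dying cells, was at least 2-fold lower (996 and 539 counts, −1.02). The promoters of *Hmox1*, for a haem-degrading enzyme (538 and 449 counts, −0.40), and *Slc40a1*, for the iron exporter ferroportin (568 and 494 counts, −0.34), lay between. The lowest value belonged to a region 18458 bp upstream of *Marco*, a scavenger receptor, with 457 flox and 7 HKO counts (−5.97). A second *Marco* region, 22680 bp upstream, went the other way with 6 and 28 counts (1.91). The next lowest was a region 12410 bp from the *Lgals3* TSS (22 and 11 counts, −1.07), and both of these lowest regions had a peak in the flox library only. *Adgre1*, which encodes F4/80, had 2 regions at −0.85 and −0.42, both far upstream, and *Cd68*, *Lyz2* and *Aif1* were among the 7 genes with none.

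Transcription factors of macrophages had 73 regions for 14 of 15 genes, with a median log2 ratio of −0.64. Of these, 2 passed 2-fold upward and 12 downward, against 13.2% and 18.3% of all regions. Their 14 promoter regions ran from −1.09 to 0.78. The promoter of *Nr1h3*, for the liver X receptor alpha, had 587 and 414 counts (−0.64). *Zeb2*, which maintains tissue macrophages, was the highest promoter of the list, with 41 and 78 counts (0.78). The highest regions of the list were near *Runx1* (8 and 29 counts, 1.60) and *Tfec* (16 and 43 counts, 1.24), both with a peak in the HKO library only. *Spic*, a PU.1 relative of red pulp macrophages and Kupffer cells, had no region.

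Signals and receptors of the Kupffer cell niche, which joins these cells to endothelial and stellate cells, had 27 regions for 10 of 11 genes, with a median of 0.23. Of these, 7 passed 2-fold upward and 0 downward, against 13.2% and 18.3% of all regions, and 23.0% of those with 40 to 120 counts passed it upward. Of the 7, 6 had a peak in the HKO library only, among them each one given here. The promoter of the Notch ligand gene *Dll4* had 14 and 36 counts (1.17). That of *Csf1*, the ligand of CSF1R, had 379 and 336 counts (−0.31), while a region 27783 bp from its TSS had 7 and 49 (2.51), the highest of the list. A region near *Bmp10* had 5 and 34 counts (2.41). The promoters of *Tgfbr1* (1405 and 1030 counts, −0.58) and *Tgfbr2* (664 and 513 counts, −0.51) lay near the median of all promoters. Between them and *Dll4* were the promoters of *Notch1* (306 and 290 counts, −0.21), *Tgfb1* (110 and 158 counts, 0.38) and *Acvrl1*, a receptor for bone morphogenetic proteins (14 and 30 counts, 0.91). The promoter of its ligand gene *Gdf2* had 34 and 22 counts (−0.74).

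Markers of other cell types were read in the same comparison, and their part in the values above was not tested. All 8 sinusoidal endothelial genes had a region, 31 in all, with a median of 1.16 and sums of 1736 and 2399 counts. Of these, 16 passed 2-fold upward and 2 downward, against 13.2% and 18.3% of all regions and, upward, 23.0% of those with 40 to 120 counts. A peak in the HKO library only was found in 14 of the 16, and 53.3% of all regions of that kind passed this fold. The 7 endothelial promoter regions, 5 of them with a peak in the HKO library only, had 11 to 48 flox and 28 to 89 HKO counts, and those of *Stab2* (13 and 52 counts, 1.78) and *Lyve1* (14 and 55 counts, 1.76) were the highest. The ratios of these promoter regions ran from 0.14 to 1.78. The counts and ratios of the *C1qb* and *C1qc* promoters lay within these ranges, while *C1qa* had fewer flox counts (8) and a higher ratio (2.05). Of 8 stellate genes 4 had a region, with a median of 0.70 over 6 regions, among which the *Reln* promoter had 690 and 132 counts (−2.51). Cholangiocyte genes had a median of −0.19 over 13 regions for 4 of 8 genes. Hepatocyte genes had a median of −0.53 over 70 regions, of which 2 passed 2-fold upward and 14 downward, against 13.2% and 18.3% of all regions.

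Markers of leukocytes had few regions. *Ptprc*, which encodes CD45 of all leukocytes, had no region, and the 1 region of *Coro1a* had 50 and 38 counts (−0.52). Lymphocyte genes had 4 regions for 2 of 8 genes, of which those in *Cd4* had 442 and 193, and 344 and 173 counts. Those with *Cd8a* as the closest TSS, which had 51 and 53, and 5 and 27 counts, lie inside another gene, *Rmnd5a*. There was none for *Cd3e* or *Ms4a1*. Neutrophil genes had 2 regions for 2 of 6 genes, at −1.41 and −0.83. The first, with *Mpo* as the closest TSS, lies in an exon of *Tspoap1* and had a peak in the flox library only.

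**Figure D5:**
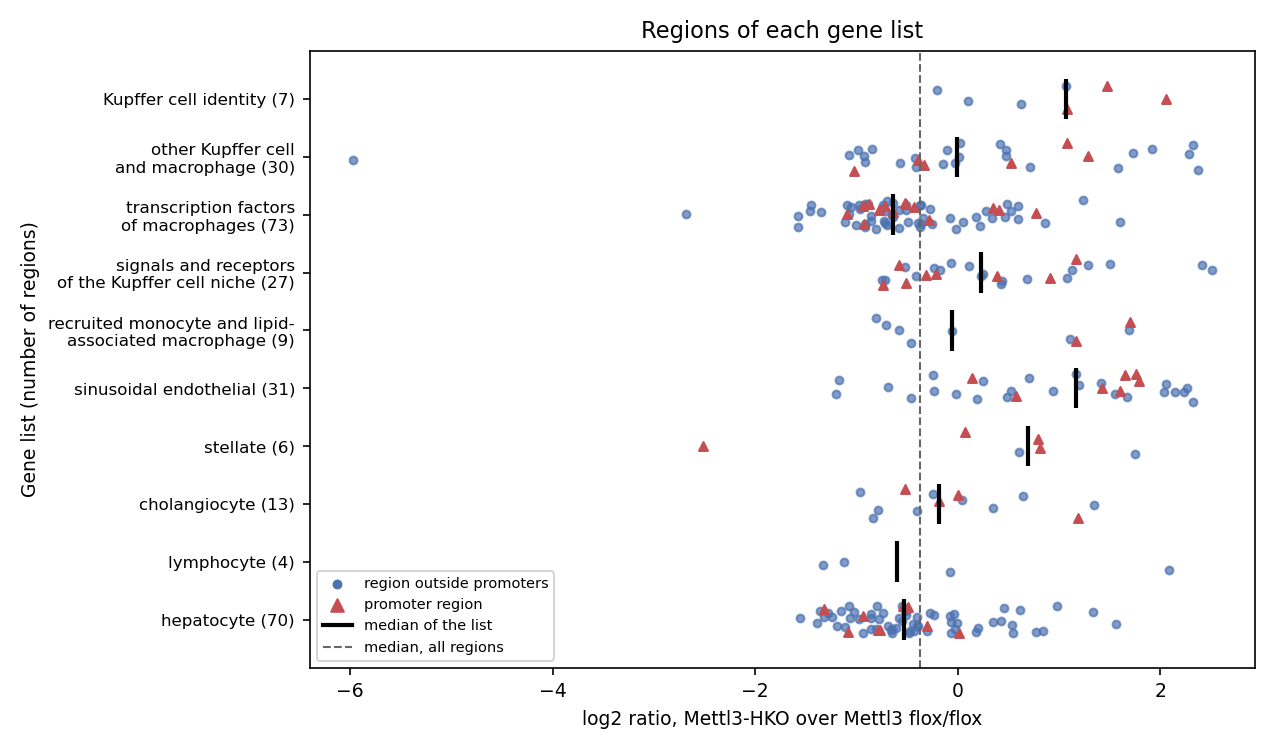
Log2 ratio (Mettl3-HKO to Mettl3 flox/flox) for every region of the gene lists named on the left, with triangles for promoter regions, circles for other regions, a black bar for the median of the list and a dashed line for the median of all regions. The medians of the Kupffer cell identity genes (1.07) and the sinusoidal endothelial genes (1.16) are the highest, and those of the hepatocyte genes and macrophage transcription factors lie left of the dashed line.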

How the data were processed

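ATAC-seq was analysed for 1 library per group. Per the study's methods and the submitters' processing notes, the authors used BWA and GRCm38 for alignment and MACS2 for peaks of each library, with duplicates kept. The counting on merged regions, and any shift of read ends for Tn5, are not given in the sources used here. The authors deposited raw counts per region, RPM values (the count plus 1, scaled to a common library size) and a fold enrichment, the ratio of reads per base to the genome mean. The authors' own log2 comparison was not used. Any duplicate reads in the counts would make them less independent than the intervals assume.

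Of 74821 rows, 5272 repeats of a region were left out, and starts were made 1-based. Library totals were recovered from the RPM values. The members and gene lists were chosen with earlier results of these data known. By rule, genes outside the 9 members could be named when they had a promoter region or were among the 2 highest and 2 lowest regions of their list with at least 20 counts. For transcription factors and markers of other cell types only some of these are given, beside the counts and medians of the list. The marker genes named without a region, *Adgre1*, further *Cd9*, *Gpnmb* and *Marco* regions, the lymphocyte and neutrophil regions and *Coro1a* were added after their values were seen. Genes of the other lists were matched by symbol (blank in 45.9% of regions) or, where no symbol matched, by position. RefSeq tables on GRCm38.p6 gave gene spans and promoter sequences, which were at hand for 6 of the 9 members. The binomial test was tested on simulated counts. Alternatives changed the scaling, the added read, the fold, the count filter, the promoter window and the value per gene. The low-count background, the backgrounds by where a peak was called, the *Spi1* gene body, the median without C1q, the centred binomial test and GAGGAA were added after the values were seen. Scripts ran in Python 3.11.15 with scipy 1.17.1, pandas 2.3.3, numpy 2.4.6 and matplotlib 3.10.9.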

Additional observations from a re-analysis of the deposited data

How the results depend on the processing

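The C1q promoters and *Clec4f* stayed above 0 under each scaling and each number of added reads tried. Each other scaling raised every ratio, so it could not have brought these below 0. The number of added reads bears little on the sign. *C1qa*, *C1qc* and *Clec4f* were also listed through the HKO library alone. Only the *Spi1* region changed sign, from −0.21 to 0.17 when centred on the median region and to 0.44 when centred on the strongest 10% of promoters. With 5 reads added to each count, 2 regions instead of 4 were at least 2-fold higher, *C1qa* and *C1qc*. For the other Kupffer cell and macrophage genes, regions at least 2-fold higher rose from 8 to 13 after centring on the strongest promoters, and regions at least 2-fold lower went from 3 to 1 under both centrings. The binomial test called 6 of the 7 regions higher, not 4, when its null ratio came from the counts on regions or from the median of all regions. Counts of 8 to 144 per region and library limit the precision. No paired analysis was possible because each group has 1 library, and none could be left out.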

Other observations

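Genes of recruited monocytes and lipid-associated macrophages, which enter or arise in injured liver, had 9 regions for 6 of 12 genes, with a median log2 ratio of −0.06. Of these, 4 passed 2-fold upward and 0 downward, against 13.2% and 18.3% of all regions. Of the 4, 3 had a peak in the *Mettl3*-HKO library only and were listed through it, and the *Cd63* promoter had one in both. Both promoter regions were higher in the *Mettl3*-HKO library: that of *Ly6c2*, a surface antigen of inflammatory monocytes, had 20 and 74 counts (1.70), and that of *Cd63*, a lysosomal membrane protein, 98 and 243 (1.17). A region 7290 bp upstream of *Cd9*, for a tetraspanin, had 21 and 77 counts (1.69), and a second one, farther upstream, 616 and 492 (−0.46). The region near *Trem2*, a lipid receptor of macrophages, was lower, with 51 and 34 counts (−0.71), and 2 regions in *Gpnmb* went in opposite directions (−0.81 and 1.11). *Ccr2*, *Cx3cr1*, *Itgam* and *Itgax* had no region. The *Ly6c2* value is uncertain, since the gene has near-identical neighbours.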
